A study of Homo sapiens and Mus musculus with 10 samples.

Results

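The genes described here are 9 integrin subunits of leukocytes and kindlin-3, the adaptor that integrins need to become active: ITGAL, ITGAM, ITGAX, ITGB2, ITGA4, ITGA5, ITGA6, ITGB1, ITGB7 and FERMT3. They were chosen by gene symbol, without regard to letter case, and all 10 were found among the 27800 symbols of the human table and the 24493 of the mouse table. The study asked how blocking the histone acetyltransferase KAT6A alters transcription in leukaemic myeloid cells, using the KAT6A inhibitor WM-1119 with DMSO as the control. MOLM-13 cells come from human acute myeloid leukaemia and carry an MLL fusion gene, and 3 DMSO libraries and 3 libraries of cells given 4 µM WM-1119 for 4 days were sequenced. ER-Hoxa9 cells are mouse myeloid progenitors kept immature by HOXA9 whose activity depends on estrogen, and they gave 2 DMSO libraries and 2 libraries of cells given 2 µM for 4 days. Both ER-Hoxa9 groups grew in 0.5 µM β-estradiol and medium conditioned with stem cell factor, so HOXA9 was held active in controls and treated cells alike. The labels do not say whether either line is a single clone, or whether replicates were separate cultures, so p-values reflect no more than how far these libraries differ, and that spread may be technical.

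Integrins are pairs of one alpha and one beta chain that span the membrane and bind other cells or matrix. On leukocytes the beta-2 chain (ITGB2) pairs with alpha chains that include alpha-L (ITGAL), alpha-M (ITGAM) and alpha-X (ITGAX). An alpha chain without its beta partner does not reach the surface. Alpha-4, alpha-5 and alpha-6 (ITGA4, ITGA5, ITGA6) pair with beta-1 (ITGB1), and alpha-4 also pairs with beta-7 (ITGB7). Kindlin-3, encoded by FERMT3, binds the beta tails in blood cells, and people who lack it have a leukocyte adhesion deficiency. In myeloid development alpha-M and alpha-X are known as marks of maturing granulocytes, monocytes and macrophages, while alpha-4 and beta-1 hold progenitors in the bone marrow.

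Values were TPM, the share of a library's transcripts that a gene takes after correction for transcript length, scaled to a fixed total, so levels can be compared between genes. TPM keep no record of read numbers, so library depth is unknown and no detection limit can be given. The number of genes at 1 TPM or more ran from 12112 to 12416 over the MOLM-13 libraries and from 11042 to 11446 over those of ER-Hoxa9. Entries named as microRNAs took 13.2% to 21.99% of the TPM of a MOLM-13 library and 7.53% to 10.96% in ER-Hoxa9. The lines were normalized in separate tables and differ in species and dose, so each was tested by itself and no difference between lines was tested. Each difference is the mean of log2(TPM + 1) in WM-1119 less that in DMSO and is given ± its SE from limma; on this scale the change of weakly expressed genes is understated. A gene was called at an adjusted p under 0.05 by limma over every gene tested, which were those averaging 1 TPM or more.

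In the human genome (GRCh38, GENCODE release 29) the beta-2 alpha genes lie on chromosome 16, where ITGAL spans 30472658 to 30523185, ITGAM 31259967 to 31332892 and ITGAX 31355134 to 31382997, all on the plus strand. ITGB2 lies on chromosome 21 (44885953 to 44931989, minus strand) and FERMT3 on chromosome 11 (64206678 to 64223886, plus strand). The antisense gene ITGB2-AS1 lies within ITGB2 (44921051 to 44929678, plus strand) and was at 0.798, 1.73 and 1.502 TPM in DMSO and 1.18, 2.43 and 3.48 TPM in WM-1119. Whether the libraries kept strand is not given, so reads of this region may belong to either gene, as may reads where FERMT3 overlaps TRPT1 and ITGB7 overlaps ZNF740, both on the opposite strand. The microRNA gene MIR4518 lies within ITGAL on the same strand and was listed between 0 and 9.87 TPM. ITGB7 (53191318 to 53207307) and ITGA5 (54395261 to 54419460) lie on the minus strand of chromosome 12, ITGA6 (172427354 to 172506282) and ITGA4 (181457202 to 181536187) on the plus strand of chromosome 2, and ITGB1 (32900319 to 33005792) on the minus strand of chromosome 10. Mouse positions were not used here.

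RefSeq promoter windows (GRCh38.p14) were matched for 7 of the 10 genes, all but ITGAL, ITGAX and ITGB2. ITGAM and FERMT3 are printed because they were higher with the drug in all 3 MOLM-13 pairs and in ER-Hoxa9 with the groups apart. The stretches end before the first annotated exon, run 5′ to 3′ on the plus strand, and show in capitals the letters GAGGAA, the core that the myeloid factor PU.1 is known to bind.
ITGAM (chr16:31259725-31259966): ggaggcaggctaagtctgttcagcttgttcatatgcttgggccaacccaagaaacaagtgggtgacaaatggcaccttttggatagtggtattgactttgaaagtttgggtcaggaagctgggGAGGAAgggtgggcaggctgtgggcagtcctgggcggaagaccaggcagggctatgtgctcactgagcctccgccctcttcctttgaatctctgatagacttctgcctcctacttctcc
FERMT3 (chr11:64206471-64206677): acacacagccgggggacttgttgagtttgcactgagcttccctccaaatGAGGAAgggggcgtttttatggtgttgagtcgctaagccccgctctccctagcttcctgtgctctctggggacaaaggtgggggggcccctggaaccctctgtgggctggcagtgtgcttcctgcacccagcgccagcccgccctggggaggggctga

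Each printed stretch holds GAGGAA once, on the strand shown. On both strands, 4 of the 7 genes held GAGGAA within 250 bases before the RefSeq start, namely ITGAM, FERMT3, ITGB1 and ITGB7, against 23.4% of the 27305 promoters of that length. The letters GGGCGG, a GC box, were in 4 of the 7, ITGAM, FERMT3, ITGB1 and ITGA5, against 42.3% of all promoters. These motifs do not overlap each other, and a match is a description of the letters only.

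In DMSO-treated MOLM-13 cells the alpha-L and beta-2 chains led. ITGAL stood at 333 ± 76.3 TPM (SD, n = 3), ITGB2 at 249 ± 52.1 TPM and ITGA5, the fibronectin receptor's alpha chain, at 148 ± 78.0 TPM. Within each library these genes kept that order, although their ranges overlapped across libraries. ITGB1 followed at 57.0 ± 8.62 TPM, with a range apart from those of its neighbours in the order. ITGB7 (28.8 ± 5.09 TPM), FERMT3 (28.3 ± 15.1 TPM), ITGA4 (24.2 ± 8.06 TPM), ITGAX (19.6 ± 14.6 TPM) and ITGAM (12.6 ± 5.23 TPM) came next, and no 2 neighbours among them differed beyond the spread of the libraries. ITGA6, a laminin receptor chain, was last at 1.05 ± 0.177 TPM.

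The order was another one in DMSO-treated ER-Hoxa9 cells, where kindlin-3 led. Fermt3 stood at 215 ± 17.0 TPM (SD, n = 2), Itgb1 at 90.9 ± 6.41 TPM and Itga6 at 74.6 ± 6.47 TPM. Itgal (57.5 ± 4.99 TPM), Itga4 (47.0 ± 7.05 TPM), Itgb2 (25.5 ± 0.754 TPM) and Itga5 (19.3 ± 0.0295 TPM) followed, each with a range apart from the next. Itgb7 was at 5.39 ± 2.63 TPM, Itgam at 2.06 ± 1.05 TPM and Itgax at 1.72 ± 0.310 TPM, and the last pair overlapped. Itga6 thus came after only Fermt3 and Itgb1 here and last in MOLM-13, while Itgb2 came after 5 of the others here and after ITGAL alone in MOLM-13.

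**Figure D1:**
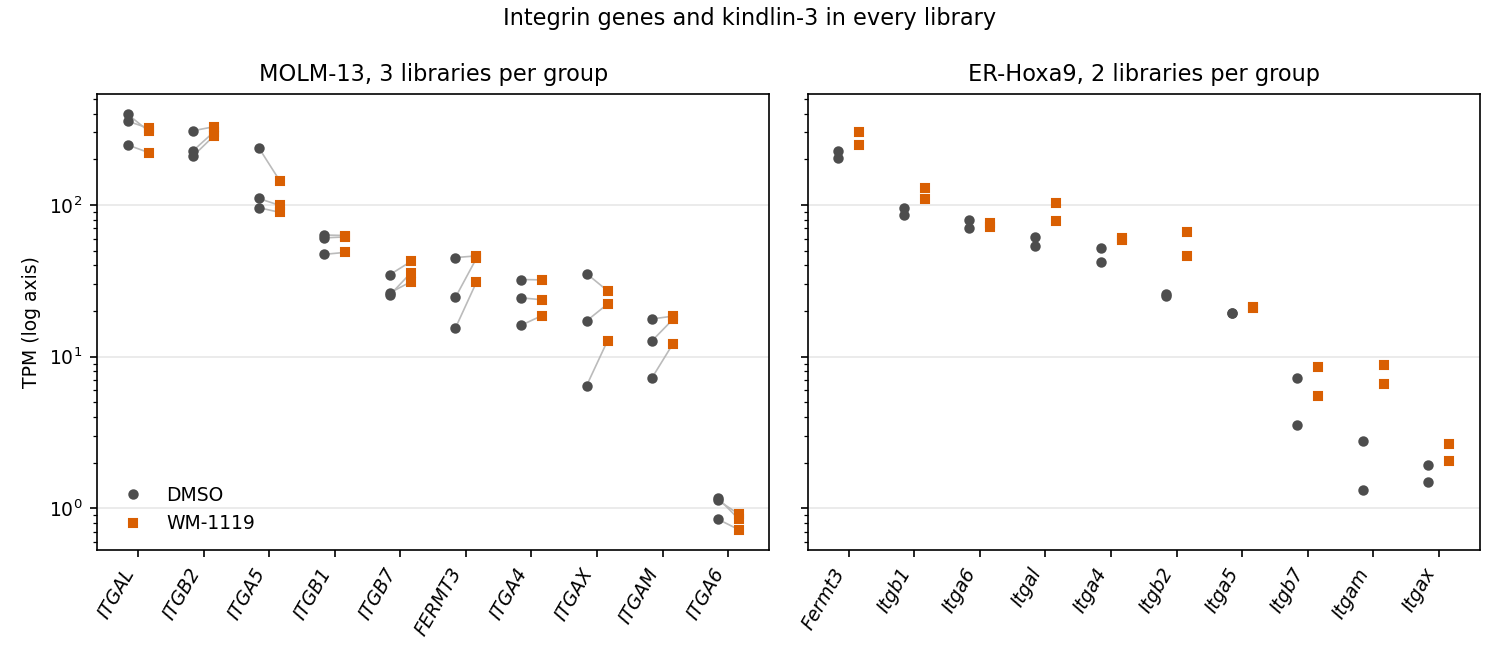
TPM (log axis) of each of the 10 genes in every library, ordered by the DMSO mean of each line, with circles for DMSO and squares for WM-1119; grey lines join MOLM-13 libraries of the same replicate number. ITGAL and ITGB2 lead in MOLM-13 and Fermt3 leads in ER-Hoxa9, and the groups overlap for all 10 genes in MOLM-13 and for 2 in ER-Hoxa9.

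WM-1119 left no member past the threshold in MOLM-13, and the direction differed within the beta-2 family. The shared chain ITGB2 and its partner ITGAM were higher with the drug in each of the 3 same-numbered pairs of libraries, while the partner ITGAL was lower in each. ITGB7 and FERMT3 were also higher in each pair, and ITGA5 and ITGA6 lower. By limma 0 of the 9 members tested were called (adjusted p = 0.99999 for each), against 0.00804% of the 12436 genes tested, and 0 had an unadjusted p under 0.05, where 2.08% of all genes had one in the higher direction. Samples with the same number deviated together, so a fit with the replicate number as a block was also run. It called 0 members and 0% of all genes, and at an unadjusted p under 0.05 it held 4 members higher, against 13.2% of all genes, and 1 member lower, against 4.91%. Over all genes the block gave 1645 higher and 611 lower at that p, and 1098 and 1140 with median-of-ratios scaling as well. Of all genes tested, 28.6% were higher in all 3 pairs and 14.4% lower, beside 4 and 2 of the 9 members tested. With ITGA6, which was not tested, 3 of 10 were lower in all pairs, and 4 of 10 under median-of-ratios scaling. The share of all genes lower in all pairs under that scaling is not given.

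Among the beta-2 chains, ITGB2 stood at 211, 308 and 228 TPM in DMSO replicates 1, 2 and 3 and at 287, 328 and 304 TPM in WM-1119. The WM-1119 libraries lay close together near the highest DMSO library, and 2 of them lay below it. The difference was 0.31 ± 0.20 (limma adjusted p = 0.99999, and 0.219 with the replicate block). ITGAL, whose product pairs with beta-2 as the receptor for ICAM molecules, stood at 356, 395 and 248 TPM in DMSO and 320.0, 305 and 221 TPM in WM-1119. Replicate 3 was the lowest of both groups, so the groups overlapped even though each treated library was below its partner. Its difference was -0.23 ± 0.25 (limma adjusted p = 0.99999, and 0.240 with the block).

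ITGAM, the CD11b chain of the complement receptor on granulocytes and monocytes, was at 7.26, 17.7 and 12.7 TPM in DMSO and 12.2, 18.5 and 17.6 TPM in WM-1119. DMSO replicate 1 was the low library, and the difference was 0.39 ± 0.32 (limma adjusted p = 0.99999, and 0.247 with the block), or 0.07 without that library. ITGAX, the CD11c chain, spread most among DMSO libraries, at 6.42, 35.2 and 17.2 TPM, and was at 12.7, 27.2 and 22.2 TPM in WM-1119. It was higher with the drug in pairs 1 and 3 and lower in pair 2, with a difference of 0.29 ± 0.56. Without DMSO replicate 1 that difference was -0.31.

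Of the beta-1 and beta-7 chains, ITGB7 was at 26.3, 34.7 and 25.5 TPM in DMSO and 31.1, 42.4 and 35.6 TPM in WM-1119. Its difference of 0.33 ± 0.20 had the smallest adjusted p of any member in the fit with the replicate block (limma, 0.173). ITGB1 was nearly level, at 60.6, 63.3 and 47.2 TPM in DMSO and 61.5, 62.8 and 48.6 TPM in WM-1119 (difference 0.02 ± 0.20, which becomes -0.05 under median-of-ratios scaling). ITGA4 fell from replicate 1 to replicate 3 in both groups, at 32.2, 24.4 and 16.1 TPM in DMSO and 32.0, 23.7 and 18.6 TPM in WM-1119 (difference 0.05 ± 0.30, or -0.02 under that scaling).

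ITGA5 was at 110.2, 238 and 95.9 TPM in DMSO and 99.2, 144 and 89.2 TPM in WM-1119. Its difference was -0.32 ± 0.37 (limma adjusted p = 0.99999, and 0.315 with the block), and within pairs it ran from -0.72 to -0.10. Leaving out DMSO replicate 2 while keeping its partner gave 0.08. ITGA6 was at 1.13, 1.18 and 0.850 TPM in DMSO and 0.919, 0.852 and 0.725 TPM in WM-1119, too low on average to be tested. FERMT3 was at 15.4, 45.0 and 24.6 TPM in DMSO and 30.9, 46.1 and 44.4 TPM in WM-1119, with the largest difference of the 10 genes in this line, 0.61 ± 0.38 (limma adjusted p = 0.99999, and 0.238 with the block). The difference lay in pairs 1 and 3, and in pair 2 both libraries were already high. Without DMSO replicate 1 the FERMT3 difference was 0.25.

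Among the 10 genes in MOLM-13, the spread between control libraries was larger than the drug difference. For all 10 genes the log2 range of the 3 DMSO libraries exceeded the difference between the group means, as it did for 91.9% of all genes tested. DMSO replicate 2 held the highest DMSO value for 9 of the 10 genes, the exception being ITGA4, whereas it did so for 26.1% of all genes tested. The WM-1119 libraries had the smaller range for 9 of the 10, ITGB7 being the exception, against 66.2% of all genes. For ITGAX the range was 2.29 in DMSO and 1.04 in WM-1119, for FERMT3 1.48 and 0.56, and for ITGB2 0.55 and 0.19. No member had every WM-1119 library on 1 side of every DMSO library, where 4.54% of all genes lay wholly above and 2.43% wholly below.

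**Figure D2:**
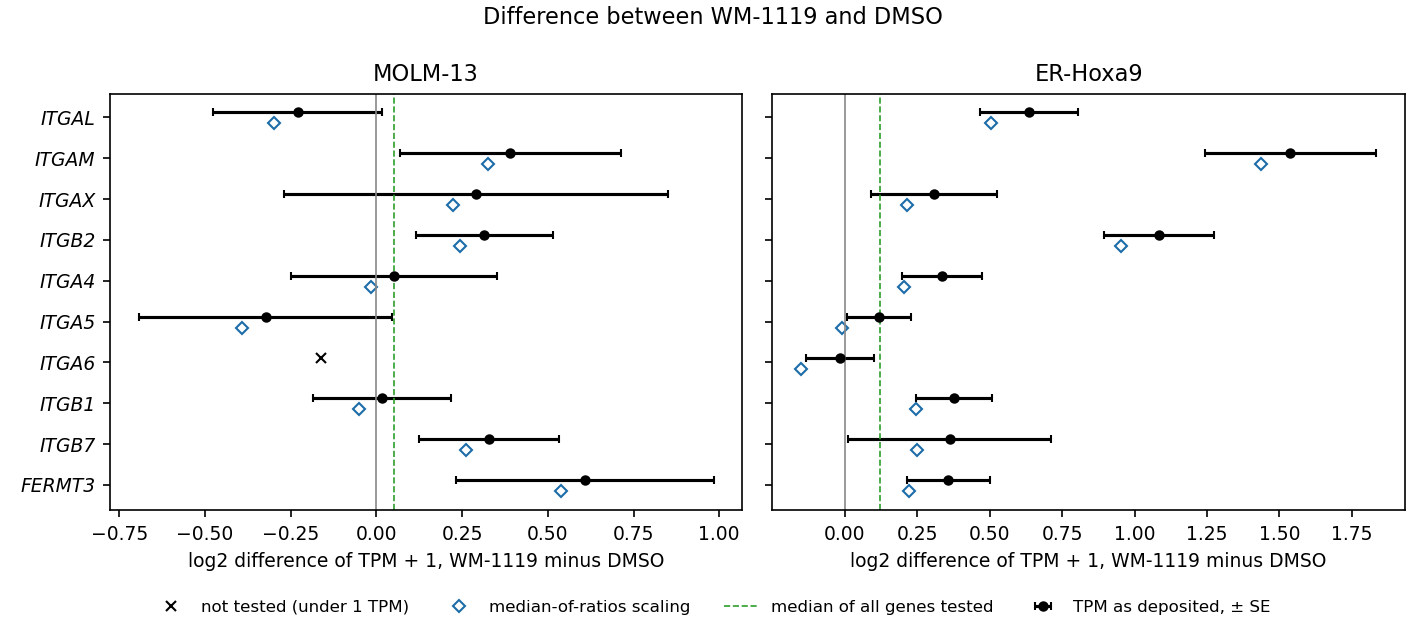
Log2 difference of TPM + 1 between the WM-1119 and DMSO means for each gene, as a filled circle with its SE from limma, and under median-of-ratios scaling as an open diamond; the cross marks ITGA6 in MOLM-13, which was not tested. The dashed line is the median of all genes tested, 0.05 in MOLM-13 and 0.12 in ER-Hoxa9, and Itgam and Itgb2 lie farthest to the right of it in ER-Hoxa9.

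Among the 10 genes in ER-Hoxa9 the beta-2 chain and alpha-M had the largest differences, at 1.09 and 1.54, and 9 genes had positive ones. Every WM-1119 library lay above every DMSO library for 8 of the 10, all but Itga6 and Itgb7, in a line where 40.3% of the 11362 genes tested did so and 7.94% lay wholly below. By limma 0 members were called (adjusted p = 0.295 to 0.961), against 0.0352% of all genes. At an unadjusted p under 0.05 there were 4 members higher, Itgam, Itgb2, Itgal and Itgb1, and 0 lower, against 11.6% of all genes higher. Over all genes that was 1322 higher and 128 lower, and 732 and 410 under median-of-ratios scaling. The median difference of the 10 was 0.36, against 0.12 over all genes tested, and under median-of-ratios scaling these medians were 0.23 and -0.00308. Under that scaling 7 members had their groups apart, in place of 8. The share of all genes with groups apart under that scaling is not given, so the 7 have no background here.

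Itgb2 measured 26.0 and 24.97 TPM in the 2 controls and 65.9 and 46.2 TPM after WM-1119, so the lower treated library was still well above both controls. The difference was 1.09 ± 0.19 (limma adjusted p = 0.295). Itgam was at 1.32 and 2.80 TPM in DMSO and 8.81 and 6.56 TPM in WM-1119, a difference of 1.54 ± 0.30 (limma adjusted p = 0.300) at a low level in both groups. Itgal was at 54.0 and 61.0 TPM in DMSO and 103 and 78.0 TPM in WM-1119, with a difference of 0.64 ± 0.17 (limma adjusted p = 0.312). Itgax had the smallest difference of the 4 beta-2 family genes in the set. It was at 1.497 and 1.93 TPM in controls and 2.66 and 2.06 TPM after treatment, and its nearest control and treated libraries were almost level. The first WM-1119 library was the higher one for each of these 4 genes. Itgad, kept among the other integrin subunits, was at 1.16 ± 0.289 and 0.937 ± 0.0264 TPM (difference -0.15 ± 0.24).

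Itgb1 was at 86.3 and 95.4 TPM in DMSO and 128 and 109 TPM in WM-1119, with a difference of 0.38 ± 0.13 (limma adjusted p = 0.370). Itga4, its partner on progenitors, was at 42.0 and 52.0 TPM in DMSO and 58.4 and 60.1 TPM in WM-1119 (difference 0.34 ± 0.14). Itga5 differed by little but had tight replicates, at 19.4 and 19.3 TPM in controls and 21.2 and 21.0 TPM after treatment, and its difference of 0.12 ± 0.11 became -0.0097 under median-of-ratios scaling. Itga6 was level, at 79.1 and 70.0 TPM in DMSO and 71.5 and 75.4 TPM in WM-1119. Itgb7 overlapped between the groups, at 3.53 and 7.26 TPM in DMSO and 5.47 and 8.55 TPM in WM-1119. Its same-numbered log2 differences were 0.21 and 0.51. Without DMSO replicate 1 the Itgb7 difference of 0.36 ± 0.35 was -0.07. Fermt3 was at 227 and 203 TPM in DMSO and 304 and 249 TPM in WM-1119, a difference of 0.36 ± 0.14 (limma adjusted p = 0.394) on top of the highest level of the 10 genes.

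Ratios taken within a library do not depend on how libraries are scaled, so the balance of subunits was compared as well. Alpha-L transcripts per beta-2 transcript were lower with WM-1119 in all 3 pairs of MOLM-13 libraries and lower in both treated ER-Hoxa9 libraries than in either control. In MOLM-13 the ratio of ITGAL to ITGB2 TPM was 1.69, 1.28 and 1.09 in DMSO and 1.12, 0.933 and 0.727 in WM-1119, and the groups overlapped. In ER-Hoxa9 it was 2.07 and 2.44 in DMSO and 1.56 and 1.69 in WM-1119, with the groups apart. The exact permutation test gave p = 0.2 in MOLM-13, where the smallest possible is 0.1, and 0.333 in ER-Hoxa9, the smallest possible there, so neither design can reach 0.05. Both have a Benjamini-Hochberg adjusted p of 0.533 over the 8 ratios and shares tested. This ratio and the share of beta-2 among the beta chains were added after the values had been seen.

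The share of alpha-L in the summed TPM of ITGAL, ITGAM and ITGAX was lower in the same libraries. It was 96.3%, 88.2% and 89.2% in DMSO and 92.8%, 87.0% and 84.7% in WM-1119 in MOLM-13 (exact permutation p = 0.5, n = 3 per group), and the difference of -3.07 percentage points was -0.543 without DMSO replicate 1. In ER-Hoxa9 it was 95.05% and 92.8% in DMSO and 90.0% and 90.0% in WM-1119 (exact permutation p = 0.333, n = 2 per group). Alpha-L was the main beta-2 alpha transcript in all 10 libraries. The share of beta-2 among beta-1, beta-2 and beta-7 transcripts was 19.6% to 22.5% in ER-Hoxa9 DMSO libraries and 28.2% to 33.0% in WM-1119, a difference of 9.61 percentage points, and 70.8% to 75.9% and 75.6% to 78.3% in MOLM-13, a difference of 2.36. The share of alpha-4 among alpha-4, alpha-5 and alpha-6 transcripts was, in DMSO and WM-1119, 15.3% ± 6.65 and 18.5% ± 5.22 (SD, n = 3) in MOLM-13, where the groups overlapped, and 33.4% ± 4.87 and 38.5% ± 0.197 (SD, n = 2) in ER-Hoxa9. The MOLM-13 difference of 3.16 percentage points was 0.139 without DMSO replicate 2 and 0.283 without WM-1119 replicate 1, and the ER-Hoxa9 difference of 5.16 was 1.72 without DMSO replicate 1. The exact permutation p of these shares was 0.6 in MOLM-13 and 0.333 in ER-Hoxa9.

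**Figure D3:**
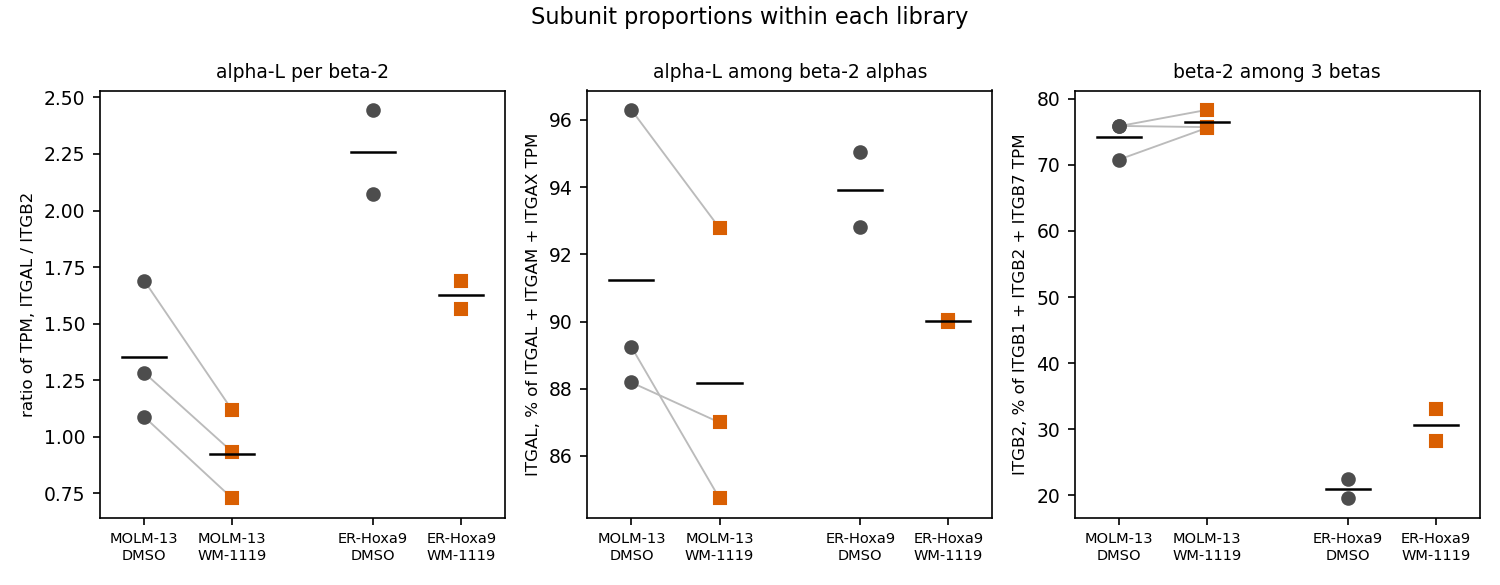
Within-library ratio of ITGAL to ITGB2 TPM, share of ITGAL among ITGAL, ITGAM and ITGAX, and share of ITGB2 among 3 beta chains. There is 1 point per library, with horizontal bars for group means and grey lines joining same-numbered MOLM-13 libraries. The vertical axes do not start at 0. The ITGAL to ITGB2 ratio is lower in WM-1119 in all 3 joined pairs of MOLM-13 and in both ER-Hoxa9 libraries.

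A list of genes that control integrin activation, among them inhibitors such as SHARPIN and SIPA1, gave no calls in either line. Over all genes tested the median difference was 0.05 in MOLM-13 and 0.12 in ER-Hoxa9, and the share of positive differences is not given. Of the list's 22 genes, 19 were tested in MOLM-13, with 0 called in either direction and a median difference of 0.10. In ER-Hoxa9 18 were tested, with 0 called, 17 positive differences and a median of 0.35. The most abundant over both groups in MOLM-13 were FLNA, a filamin that competes for beta tails, at 237 ± 81.2 TPM in controls and 244 ± 67.9 TPM after treatment, and TLN1, the talin that binds them, at 89.2 ± 30.6 and 89.3 ± 33.1 TPM. Over both groups in ER-Hoxa9 they were Rap1b, a small GTPase, at 159 ± 0.605 and 167 ± 16.1 TPM, and Rasgrp2, an exchange factor for it, at 87.2 ± 11.3 and 137 ± 4.87 TPM (difference 0.65 ± 0.13, limma adjusted p = 0.305). Kindlin-3 was the main kindlin in both, since FERMT1 was at 5.67 ± 1.12 TPM in MOLM-13 DMSO libraries and FERMT2 at 0.0178 ± 0.0154, and both were under 0.1 TPM on average in ER-Hoxa9.

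Of 29 integrin adhesion and signalling genes, 24 were tested in MOLM-13 and 22 in ER-Hoxa9, with 0 called and medians of 0.15 and 0.30. TYROBP, a signalling adaptor of myeloid receptors, was the most abundant in both, at 399 ± 107 and 530 ± 205 TPM in MOLM-13 and 408 ± 20.8 and 701 ± 217 TPM in ER-Hoxa9. ZYX, zyxin, was at 295 ± 129 and 282 ± 59.4 TPM in MOLM-13, and Parvg, a parvin of blood cells, at 203 ± 36.6 and 251 ± 0.462 TPM in ER-Hoxa9.

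Ligands were tested for 8 genes in MOLM-13 and 7 in ER-Hoxa9, from 19 listed, with 0 called and medians of -0.05 and 0.53. ICAM3, a ligand of the alpha-L beta-2 receptor on leukocytes, was at 112 ± 13.3 TPM in MOLM-13 controls and 163 ± 12.9 TPM after treatment (difference 0.54 ± 0.18, limma adjusted p = 0.99999). Its groups lay apart, in a line where 4.54% of all genes tested lay wholly above. ICAM2 was at 29.8 ± 8.52 and 30.8 ± 5.23 TPM. Of the 8 ligands tested in MOLM-13, 4 differences were positive and 4 negative. Icam2 led in ER-Hoxa9, at 81.3 ± 5.15 and 92.1 ± 5.25 TPM, followed by the laminin chain Lamc1 at 34.4 ± 1.98 and 28.0 ± 8.18 TPM. VCAM1, the ligand of alpha-4 beta-1, averaged 0.00477 TPM in DMSO in MOLM-13 and was listed at 0 in WM-1119. Other adhesion receptors numbered 15 tested in MOLM-13 and 16 in ER-Hoxa9, with 0 called and 11 and 16 positive differences. Their medians were 0.17 and 0.35, against 0.05 and 0.12 over all genes tested.

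The tetraspanin CD63 led those receptors, at 262 ± 27.4 and 342 ± 39.5 TPM in MOLM-13 and 874 ± 163 and 957 ± 219 TPM in ER-Hoxa9. SPN, leukosialin, was at 161 ± 18.3 and 174 ± 6.68 TPM in MOLM-13, and Cd34, a progenitor sialomucin, at 754 ± 116 and 919 ± 34.6 TPM in ER-Hoxa9. For other integrin subunits, 4 of 17 were tested in MOLM-13 and 6 of 18 in ER-Hoxa9, with 0 called and medians of 0.13 and 0.11. ITGA7 was at 27.0 ± 6.41 and 32.2 ± 3.01 TPM and ITGB5 at 13.7 ± 9.05 and 9.74 ± 3.12 TPM in MOLM-13. In ER-Hoxa9 Itgb5 was at 27.2 ± 5.70 and 43.7 ± 14.6 TPM and Itga9 at 17.2 ± 0.953 and 15.7 ± 2.82 TPM. Itgb3, less abundant there, was at 7.68 ± 3.18 and 20.6 ± 1.55 TPM. Its difference of 1.37 ± 0.27 (limma adjusted p = 0.304) was larger than that of Itgb2. Of the 6 tested in ER-Hoxa9, 3 differences were positive and 3 negative. Itgb2l, a mouse paralogue of Itgb2, was at 0.335 to 0.662 TPM.

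**Figure D4:**
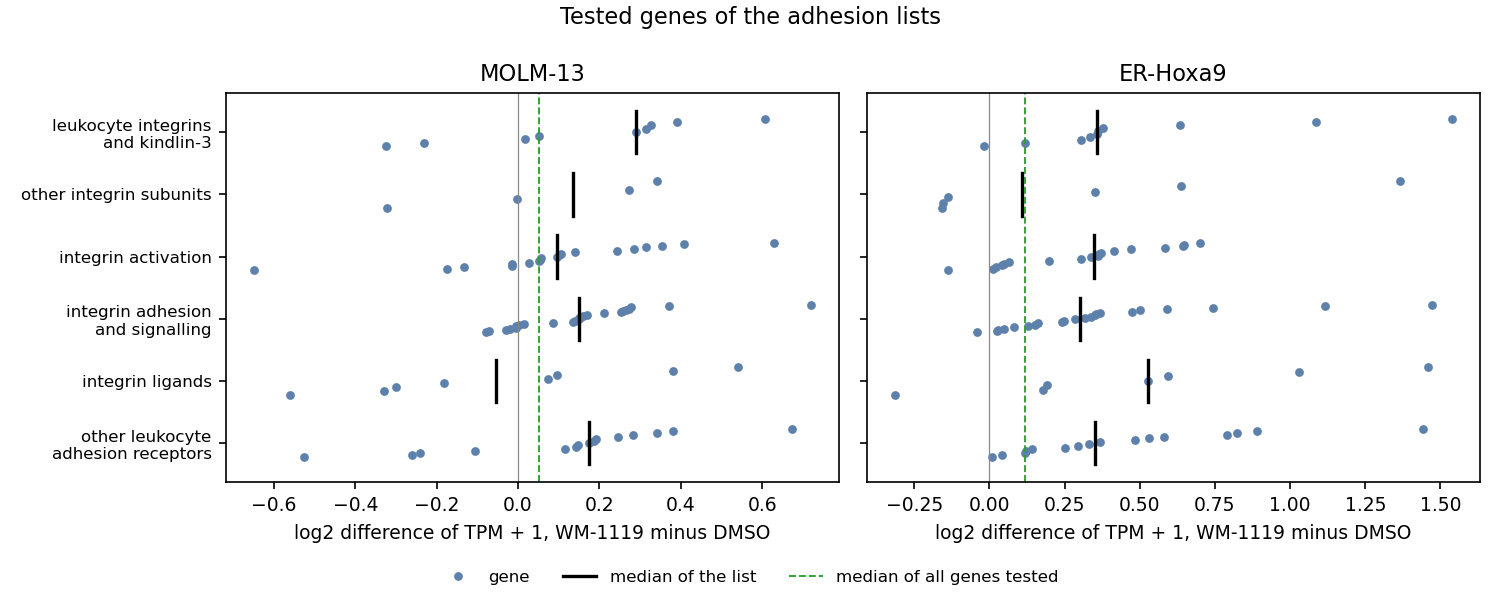
Log2 difference of TPM + 1 (WM-1119 minus DMSO) of every tested gene in the integrin set and 5 adhesion lists, 1 point per gene, with a black bar at the median of the list and a dashed line at the median of all genes tested. In ER-Hoxa9 the medians of the integrin set (0.36), the activation list (0.35) and the adhesion receptors (0.35) lie to the right of the dashed line at 0.12, and no gene shown was called.

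Markers of myeloid cells and of other cell types gave the setting of these values. In each line 16 of 18 myeloid markers were tested, with 0 called by limma, medians of 0.21 in MOLM-13 and 0.57 in ER-Hoxa9, and 2 and 8 genes higher at an unadjusted p under 0.05, where 2.08% and 11.6% of all genes were. Their summed level was 7926 to 15115 TPM in MOLM-13 DMSO libraries and 11205 to 16983 TPM in WM-1119, and 4617 to 6455 TPM and 7088 to 7717 TPM in ER-Hoxa9. PRTN3 led in MOLM-13 and Ctsg in ER-Hoxa9, both granule proteases, while CD34 was listed at 0 in every MOLM-13 library and Lyz2 in every ER-Hoxa9 library.

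In ER-Hoxa9 the sums of 2 lists of other cell types lay wholly higher with WM-1119. Of all single genes tested, 40.3% did so. The 10 B cell markers summed to 57.2 to 77.9 TPM in controls and 113.5 to 114 TPM after treatment, with Ms4a1 at 0. The 10 megakaryocyte and platelet markers summed to 29.2 to 50.9 TPM and 68.9 to 79.0 TPM, with Gp1bb at 0. All 4 tested B cell markers had positive differences, but the groups overlapped for Ebf1, at 30.3 ± 3.88 and 31.9 ± 8.59 TPM. Of 5 tested megakaryocyte and platelet markers 4 were positive. The groups overlapped for Pf4, Gp1ba and Itga2b, the last at 15.5 ± 0.769 and 13.9 ± 2.81 TPM. In MOLM-13, where 4.54% of all genes tested lay wholly above, the megakaryocyte and platelet sums also lay apart. They ran from 2.20 to 7.33 TPM among controls and from 7.66 to 9.23 TPM among treated libraries, with PF4 and PPBP at 0. GP1BB was the most abundant of these markers, at 2.30 ± 2.55 and 5.52 ± 0.648 TPM, while GP1BA was at 1.36 ± 0.495 and 1.10 ± 0.0698 TPM. The MOLM-13 B cell sums overlapped, at 2.50 to 4.18 TPM and 3.09 to 4.15 TPM, with MS4A1 and VPREB1 at 0. The sums of T and NK cell, erythroid, mast cell, basophil and eosinophil, and stromal markers overlapped between groups in both lines. The part of these markers in the integrin values was not tested, and in bulk RNA fewer cells of a type and less RNA per cell cannot be told apart.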

How the data were processed

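RNA sequencing of 10 libraries was analysed from 2 deposited tables of TPM. Per the submitters' processing notes, the authors used Salmon, and the builds named there are hg38 and mm10; Salmon's version is not given in the sources used here, nor is the annotation. Column sums were 1000000.0 in each library, so depth is unknown. From these values log2(TPM + 1) was fitted per line with limma 3.58.1 in R 4.3.3 (eBayes with trend, Benjamini-Hochberg) on genes averaging 1 TPM or more, and the script was tested on simulated data. Within-library ratios were compared with two-sided exact permutation tests. In MOLM-13 the deviations of same-numbered libraries correlated at 0.52, 0.44 and 0.61, each above 0.1, so the numbers were taken from the data to pair the libraries. Alternatives changed the pseudocount, filter, scaling, microRNA entries, trend, block and each library. Genes named from the lists are the 2 most abundant of each pathway list by the mean over both groups of a line, unless said otherwise. The mouse table's columns are headed LysHoxa9; they were matched to the ER-Hoxa9 samples by the table's line name, treatment and number. One result is not reported here. The members and lists were chosen with earlier results of these data known.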

Additional observations from a re-analysis of the deposited data

Results flagged for a closer look

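For 2 genes the MOLM-13 pairs all pointed down while both treated ER-Hoxa9 libraries lay above both controls. Over all genes tested, 14.4% were lower in all MOLM-13 pairs and 40.3% lay wholly above in ER-Hoxa9. The share of genes with both patterns is not given. ITGAL had a log2 difference of -0.23 in MOLM-13 and 0.64 in ER-Hoxa9, and leaving out 1 library moved the MOLM-13 value between -0.43 and -0.064. ITGA5 had -0.32 in MOLM-13, which was 0.08 without DMSO replicate 2, and 0.12 in ER-Hoxa9, which was -0.0097 under median-of-ratios scaling. Neither difference between the lines was tested, because the tables were normalized separately.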

How the results depend on the processing

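No member was called under any alternative run in either line. Over all genes, limma called 1 in MOLM-13 and 4 in ER-Hoxa9. In MOLM-13 the count was 0 with no filter, 2 without the trend, 0 with the replicate block, 0 when median-of-ratios scaling joined the block, 0 with the block and the replicate 3 pair left out, and 0 to 6 leaving out 1 library. In ER-Hoxa9 it was 0 with a pseudocount of 0.1, 0 with no filter, 3 under median-of-ratios scaling, 1 without microRNA entries, 16 without the trend, 0 with the replicate block, 0 with the block and scaling, and 0 to 0 leaving out 1 library. The causes were not tested. In ER-Hoxa9 same-numbered deviations correlated at 0.21 over 2 pairs, also above 0.1, and differently numbered ones at -0.21. With 2 libraries per group these values mirror each other, and the ER-Hoxa9 libraries were not taken as paired. The replicate block there gave 6 members higher at an unadjusted p under 0.05 in place of 4, and 1761 of all 11362 genes in place of 1322. Of the member differences under alternatives, 117 kept their direction in MOLM-13 and 12 did not, against 105 and 5 in ER-Hoxa9. These counts include alternatives that cannot change a difference, namely no filter, no trend and the replicate block. The block with scaling only repeats the difference under scaling. The counts thus overstate how firm the directions are. In MOLM-13, median-of-ratios scaling gave ITGA4 -0.015 and ITGB1 -0.051, with or without the block, and leaving out the replicate 3 pair under the block gave ITGA4 -0.024. Leaving out 1 library gave ranges of -0.31 to 0.84 for ITGAX, -0.20 to 0.28 for ITGA4, -0.57 to 0.077 for ITGA5 and -0.11 to 0.13 for ITGB1. In ER-Hoxa9, scaling gave Itga5 -0.0097, with or without the block, and leaving out 1 library gave -0.11 to 0.069 for Itga6 and -0.071 to 0.79 for Itgb7. The 24 shares and ratios recomputed in MOLM-13 and 16 in ER-Hoxa9 kept their direction, but sizes moved: in MOLM-13, in percentage points, the ITGAL share ran from -5.37 to -0.543, the ITGA4 share from 0.139 to 6.72 and the ITGB2 share from 0.663 to 3.21. The added fits, which joined the block to scaling or left out a pair, and the leave-out values of the ITGAL to ITGB2 ratio and the beta-2 share were chosen after seeing the data.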
